A study of Mus musculus with 21 samples.

Results

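The change that TGFb1 made in mouse lung fibroblasts kept in CHIR was measured across the transcriptome by RNA sequencing, by setting 3 libraries labelled TGFb1 + CHIR against 3 labelled CHIR. These 6 libraries are part of 21 that form 7 groups of 3, and were chosen by their treatment label alone. All were made with a stranded total RNA kit from lung fibroblasts described as Ly6C+ and Sca-1+, surface proteins encoded by the Ly6c genes and by Ly6a. The CHIR group received CHIR without TGFb1, and the TGFb1 + CHIR group received both. For comparison, 3 DMSO libraries and 3 TGFb1 + DMSO libraries gave the response to TGFb1 beside the solvent DMSO. The remaining groups, labelled TGFb1, TGFb1 + IL1b and TGFb1 + TNF, shared the statistical fit. The TGFb1 group, with no solvent in its label, also took the place of TGFb1 + DMSO as an alternative. CHIR was present in both groups of the main comparison and in neither group of the solvent comparison, and the labels do not say whether the CHIR groups also held DMSO. The sources used here give no strain, sex, age, dose or time, and do not say if replicates came from separate animals or cultures. The p-values therefore cover only the spread between libraries of a group, which may be technical.

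TGFb1 is a secreted cytokine whose receptor kinases phosphorylate SMAD2 and SMAD3, which join SMAD4 and act on target genes in the nucleus. In lung fibroblasts it is best known for raising collagen and other matrix genes, contractile genes and its own feedback inhibitors, and it is a central factor in fibrosis. CHIR is given in the labels by that short name only, which commonly stands for an inhibitor of GSK3, the kinase that marks beta-catenin for breakdown. Beta-catenin that is not broken down works with TCF and LEF proteins at Wnt target genes.

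Levels are given as CPM, the count of a gene per 1e+06 counts of its library, scaled by library total and a normalisation factor. A change is a log2 fold change ± an approximate standard error (SE), positive where the TGFb1 + CHIR libraries were higher. This SE was worked back from edgeR's quasi-likelihood test, as the size of the change divided by the square root of the F statistic. It is not a fitted error, and it is unreliable where a group held few or no counts. A gene is said to have risen or fallen where its adjusted p in edgeR's quasi-likelihood test was under 0.05, and to have missed the test otherwise. CPM values are not divided by gene length, so they compare libraries and not genes. Bulk RNA cannot tell fewer cells of a kind from less RNA per cell.

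Before the values, the stretch upstream of the transcription start is shown for 5 genes that the results below turn on. Lrrc15, Mmp13, Mmp10 and Lif rose with TGFb1 in CHIR, and Tnxb fell. They are shown because each holds 1 match to the palindromic AP-1 motif TGANTCA, the letters bound by FOS and JUN proteins, whose own genes changed here. Each line gives the 250 bases before the start from the RefSeq promoter table of build GRCm38.p6, read 5′ to 3′ along the gene's strand, with the motif in capitals.

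Lrrc15 (chr16:30283255-30283504, minus strand): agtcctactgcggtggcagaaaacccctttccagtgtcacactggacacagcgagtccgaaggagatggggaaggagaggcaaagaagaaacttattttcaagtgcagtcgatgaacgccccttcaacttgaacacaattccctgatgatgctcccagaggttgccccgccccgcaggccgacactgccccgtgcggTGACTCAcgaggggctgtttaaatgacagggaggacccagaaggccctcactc
Mmp13 (chr9:7272264-7272513, plus strand): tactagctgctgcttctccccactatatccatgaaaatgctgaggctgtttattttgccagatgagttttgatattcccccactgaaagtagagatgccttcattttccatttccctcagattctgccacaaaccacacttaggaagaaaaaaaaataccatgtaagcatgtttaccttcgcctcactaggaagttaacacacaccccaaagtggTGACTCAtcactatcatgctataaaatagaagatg
Mmp10 (chr9:7502092-7502341, plus strand): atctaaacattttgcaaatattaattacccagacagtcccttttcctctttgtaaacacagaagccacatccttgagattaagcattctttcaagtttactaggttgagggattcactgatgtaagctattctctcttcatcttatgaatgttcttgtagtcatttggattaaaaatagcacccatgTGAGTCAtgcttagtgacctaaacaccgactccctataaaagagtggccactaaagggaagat
Lif (chr11:4257318-4257567, plus strand): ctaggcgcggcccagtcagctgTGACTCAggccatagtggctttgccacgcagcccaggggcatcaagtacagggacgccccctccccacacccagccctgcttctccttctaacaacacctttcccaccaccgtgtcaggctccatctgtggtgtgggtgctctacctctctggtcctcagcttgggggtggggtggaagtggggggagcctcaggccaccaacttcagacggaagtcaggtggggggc
Tnxb (chr17:34670285-34670534, plus strand): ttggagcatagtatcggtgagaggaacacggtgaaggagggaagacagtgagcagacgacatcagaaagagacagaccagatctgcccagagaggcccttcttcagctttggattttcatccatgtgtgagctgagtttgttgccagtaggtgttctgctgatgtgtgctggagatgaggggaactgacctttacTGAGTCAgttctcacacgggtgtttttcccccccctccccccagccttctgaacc

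The match began 53 bases before the start in Lrrc15, 35 in Mmp13, 63 in Mmp10, 228 in Lif and 55 in Tnxb. A match is a run of letters and does not show that a factor was bound. Tnxb, which fell, and Mmp13, which rose, both hold it within 60 bases of the start.

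The CHIR libraries held 26926130, 26431985 and 20575669 counts and the TGFb1 + CHIR libraries 27939699, 20996190 and 20405826. Log2 CPM values correlated across genes at 0.988 to 0.992 within a group and at 0.913 to 0.919 between groups. The first principal component separated the groups and held 85.8% of the variance of the 6 libraries, and the second held 4.40%. The counts on the mitochondrial chromosome were 0.962% to 1.17% of the library in CHIR and 0.479% to 0.567% in TGFb1 + CHIR. Ptprc, a marker of blood cells, Epcam of epithelium, Cldn5 of endothelium and Msln of mesothelium had no counts in either group. Other markers of each kind did have counts, led in CHIR by Cd68, Hopx, Tek and Wt1. The endothelial markers Pecam1 and Cdh5 had counts in both groups. The summed level was 1.52 to 2.53 CPM in CHIR and 3.75 to 5.003 CPM in TGFb1 + CHIR for 15 immune markers, with 11 and 12 of them at 0. For 15 epithelial markers it was 9.65 to 11.9 and 2.86 to 3.97 CPM, with 7 and 10 at 0. For 12 endothelial markers, led by Kdr with TGFb1, it was 13.4 to 16.2 and 23.9 to 26.2 CPM, with 3 and 2 at 0, and for 8 mesothelial markers, led by Wt1, 8.64 to 9.93 and 16.6 to 18 CPM, with 5 and 5 at 0. Sums follow their highest genes and need not follow the members. Of the markers tested, 2 rose and 1 fell of 3 immune and 1 rose and 1 fell of 4 epithelial. Of 7 endothelial markers tested 1 rose and 3 fell (median -1.68), and of 3 mesothelial 1 rose and 0 fell. The part of these cells in the results was not tested. Mural markers, mostly Pdgfrb, a gene of fibroblasts too, summed to 1273 to 1306 and 949 to 966 CPM. Fibroblast markers, led by Col1a1, summed to 39763 to 43851 CPM in CHIR and 77331 to 85719.6 CPM in TGFb1 + CHIR. Of 7 mural markers tested 4 rose and 3 fell, and of 10 fibroblast markers 5 rose and 4 fell.

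Both sort markers were low after TGFb1. Ly6a, which encodes Sca-1, stood at 57.6, 59.1 and 65.2 CPM in the CHIR libraries and 8.71, 7.95 and 6.82 CPM in the TGFb1 + CHIR libraries. The groups did not overlap, and the change was -2.94 ± 0.092 (adjusted p = 1.09e-27). Ly6c1 stood at 10.5, 11.3 and 13.2 CPM in the CHIR libraries and 0.556, 0.79 and 0.764 CPM in the TGFb1 + CHIR libraries, again without overlap, a change of -4.06 ± 0.18. Ly6c1 has a close copy, Ly6c2, and the sources used here do not say where reads that match both were assigned. Summed over both genes, the range was 68.1 to 78.4 CPM in CHIR and 7.59 to 9.26 CPM in TGFb1 + CHIR.

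TGFb1 changed most of the genes tested in CHIR, about as many up as down. Of 16197 genes tested, 10715 (66.2%) passed, 5477 (33.8%) higher and 5238 (32.3%) lower. At least 2-fold changes were held by 1744 genes that rose (10.8%) and 2461 that fell (15.2%). For 11439 genes (70.6%) the CPM values of the groups did not overlap. The median log2 fold change over all genes tested was 0.01 and the median size of a change 0.56. Which direction held more genes depended on the normalisation factor. With RLE factors 5226 rose and 5453 fell, and the median log2 fold change was -0.017. Against shares this high, the passing of any single gene says little, so sizes and directions are given below beside every count. The counts for the lists below are to be read beside the 33.8% that rose and 32.3% that fell.

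The classes of gene differed in direction. Of 13043 protein-coding genes tested, 37.3% rose and 35.4% fell, whereas of 1211 long noncoding RNA genes 14.1% rose and 27.1% fell. Of 1499 pseudogenes, whose reads can be shared with their parent genes, 26.6% rose and 8.34% fell. Genes that fell had a median exonic length of 5097 bases, genes that rose 3732 and genes that missed the test 2877. By chromosome, the share that rose went from 27.1% on chromosome 6, where 37.7% fell, to 39.8% on chromosome 19, where 31.1% fell. In the lowest quartile of genes by level, 14.2% rose and 23.04% fell, and in the highest 43.9% and 41.4%.

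**Figure D1:**
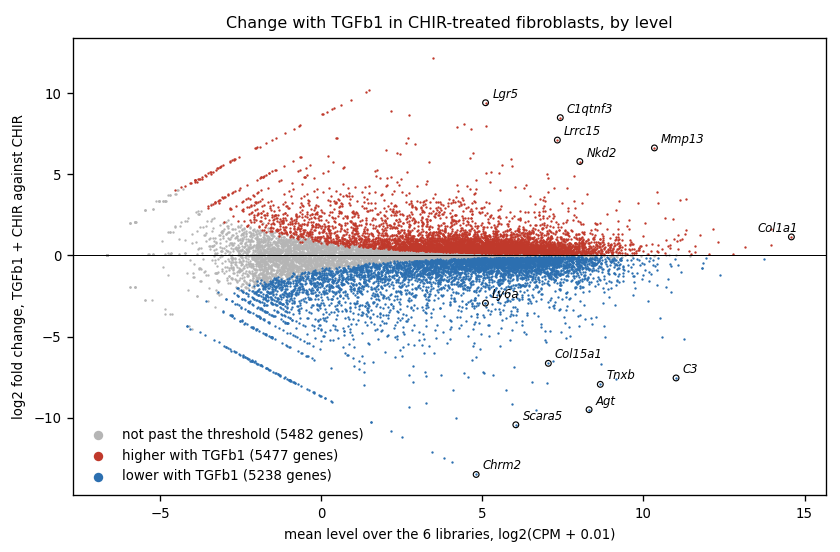
Log2 fold change of TGFb1 + CHIR against CHIR (y axis) against the mean level of the 6 libraries as log2(CPM + 0.01) (x axis) for 16197 genes, each point 1 gene, coloured by whether it rose (5477), fell (5238) or missed the test. Genes changed in both directions along most of the range of levels, from Lgr5 at 9.42 ± 0.31 to Scara5 at -10.44 ± 0.19 among those named, and genes at 0 in 1 group, such as Chrm2, sit at fitted values that are no bound.

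The genes that rose furthest came from several families: a Wnt pathway receptor, matrix fibroblast and adhesion genes, and epidermal genes. Lgr5, the receptor for R-spondins and itself a Wnt target (ENSMUSG00000020140, chromosome 10, 115450311 to 115587780 in GRCm38), stood at 0.0745, 0.038 and 0.195 CPM in the CHIR libraries and 70.1, 71.3 and 64.2 CPM in the TGFb1 + CHIR libraries. All 3 CHIR libraries were close to 0 and the groups lay far apart. Its change was 9.42 ± 0.31, a 686-fold rise (adjusted p = 2.52e-21). Lrrc15, a membrane protein that marks matrix-producing fibroblasts in fibrosis and tumours (ENSMUSG00000052316, chromosome 16, 30269302 to 30283256), stood at 2.72, 2.02 and 2.09 CPM in the CHIR libraries and 302, 300.3 and 356 CPM in the TGFb1 + CHIR libraries, a change of 7.12 ± 0.12. Dsp, desmoplakin, the anchor of desmosomes, stood at 0.484, 0.114 and 0.195 CPM in the CHIR libraries and 72.9, 67 and 68.2 CPM in the TGFb1 + CHIR libraries, a change of 7.97 ± 0.19. No CHIR library of either gene reached a TGFb1 + CHIR library.

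Prr9 and Sprr2b, a proline-rich gene pair of the epidermal differentiation region, rose from levels at or near 0. Prr9 (ENSMUSG00000056270, chromosome 3, 92122204 to 92123947) had no counts in the CHIR libraries and stood at 22.02 CPM on average with TGFb1, at least 541-fold higher against a floor of 3 counts over the group. Sprr2b (ENSMUSG00000050092, chromosome 3, 92316620 to 92318085) stood at 0.149, 0.0761 and 0.0487 CPM in the CHIR libraries and 14.5, 12.2 and 10.1 CPM in the TGFb1 + CHIR libraries and rose by 6.95 ± 0.34. Sprr2 genes are a family of close copies, so its counts may be shared. Of the epithelial markers, Epcam and Krt18 had no counts in either group, and Krt8 had counts in CHIR only. Cdh1 and Krt19 had counts in both groups, within the low epithelial sums given above. Whether epithelial cells had a part in these epidermal genes was not tested.

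Receptors and secreted factors made up most of the other genes at the top. Cxcr6, the receptor for CXCL16, rose by 8.11 ± 0.30 and Htr2b, a serotonin receptor, by 7.82 ± 0.18. C1qtnf3, a secreted protein related to complement C1q, rose by 8.50 ± 0.14, and Fgf21, an endocrine growth factor, by 7.22 ± 0.26. Moxd1, an enzyme of the dopamine beta-hydroxylase family, rose by 7.90 ± 0.23. Rflna, a partner of filamin, had 2 counts in CHIR, and Prss46, named as a serine protease, had 1. By summed counts Rflna was 486-fold higher, with a 95% counting interval of 134 to 4018, and Prss46 was 653-fold higher, with a 95% counting interval of 117 to 25847. Lamc3, a laminin chain, Kcnj15, a potassium channel, and Anxa8, a membrane-binding annexin, had no counts in CHIR and were at least 137-fold, 127-fold and 91.9-fold higher.

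Among the genes that fell furthest, several had no counts with TGFb1, including a receptor and a number of enzymes. Chrm2, the M2 muscarinic acetylcholine receptor (ENSMUSG00000045613, chromosome 6, 36388084 to 36528414), stood at 59.3, 58.4 and 50.5 CPM in the CHIR libraries and 0, 0 and 0 CPM in the TGFb1 + CHIR libraries. It was at least 1249.6-fold lower. Fmo2, a flavin monooxygenase of the lung (ENSMUSG00000040170, chromosome 1, 162874317 to 162898726), stood at 32.9, 34.8 and 31.2 CPM in the CHIR libraries and 0, 0 and 0 CPM in the TGFb1 + CHIR libraries, at least 735-fold lower. Inmt, which methylates indolamines, and Clca3a2, a member of the chloride channel accessory family, were also at 0 with TGFb1, at least 630.2-fold and 199-fold lower. The carboxylesterases Ces1d and Ces1f were at 0 as well, at least 485-fold and 251-fold lower, and their neighbour Ces1g fell by -9.15 ± 0.16. The Ces1 genes lie side by side on chromosome 8 and are close copies, so how their reads were divided is uncertain.

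The other genes at the bottom mostly encode receptors and secreted proteins. Scara5, a ferritin receptor of adventitial fibroblasts (ENSMUSG00000022032, chromosome 14, 65666403 to 65764826), stood at 131, 129.6 and 135 CPM in the CHIR libraries and 0.111, 0.0988 and 0.0509 CPM in the TGFb1 + CHIR libraries. The change was -10.44 ± 0.19 and the groups lay far apart. Ptn, the growth factor pleiotrophin, changed by -9.54 ± 0.15 and Agt, angiotensinogen, by -9.51 ± 0.14. Ephb1, an ephrin receptor, had 2 counts with TGFb1 and was 1239-fold lower, with a 95% counting interval of 343 to 10232. Gdpd2, a phosphodiesterase, had 1 and was 876-fold lower, with a 95% counting interval of 157 to 34632. These intervals cover counting error only.

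The genes of the TGFb pathway itself and its known targets moved in both directions. Of 30 tested, 20 rose and 10 fell, with a median log2 fold change of 0.69. Pmepa1, which holds back SMAD signalling, stood at 172, 178 and 178 CPM in the CHIR libraries and 1628, 1602 and 1728 CPM in the TGFb1 + CHIR libraries, a change of 3.23 ± 0.041 (adjusted p = 9.71e-50) with no overlap. Ccn2, connective tissue growth factor, stood at 69.2, 75.3 and 76 CPM in the CHIR libraries and 327, 309.7 and 298 CPM in the TGFb1 + CHIR libraries, a change of 2.08 ± 0.067. Il11, a fibroblast cytokine, rose by 3.80 ± 0.35, and the feedback genes Skil and Smad7 by 2.03 ± 0.05 and 0.34 ± 0.068.

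The ligands rose and much of the receptor and SMAD machinery fell. Tgfb2 rose by 1.86 ± 0.059, Tgfb3 by 0.92 ± 0.048 and Tgfb1 itself by 0.72 ± 0.047. The type II receptor Tgfbr2 rose by 0.66 ± 0.04, whereas the type I receptor Tgfbr1 changed by -1.40 ± 0.055 and the co-receptor Tgfbr3 by -2.83 ± 0.065. Smad3, which carries the signal, stood at 268, 269 and 278 CPM in the CHIR libraries and 36.4, 38.1 and 35.6 CPM in the TGFb1 + CHIR libraries. It was lower in every TGFb1 + CHIR library, by -2.89 ± 0.056. Smad4 changed by -0.53 ± 0.048 and Smad2 rose by 0.30 ± 0.065. Ltbp2, a latent TGFb binding protein family member of elastic fibres, stood at 789.7, 752 and 758 CPM in the CHIR libraries and 96.6, 105 and 93.6 CPM in the TGFb1 + CHIR libraries, a change of -2.96 ± 0.046.

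Fibrillar collagens and the matrix around them split into genes that rose and a proteoglycan-rich set that fell. Of 38 tested, 23 rose and 14 fell (median 0.59). Col1a1, the main chain of type I collagen (ENSMUSG00000001506, chromosome 11, 94936224 to 94953042), stood at 15157, 14653 and 16343 CPM in the CHIR libraries and 32154, 36422 and 33548 CPM in the TGFb1 + CHIR libraries. The lowest TGFb1 + CHIR library was above the highest CHIR library, and the change was 1.15 ± 0.038 (adjusted p = 2.03e-30). Col3a1, the type III chain, rose by 1.65 ± 0.038, Col1a2 by 0.63 ± 0.035, and the type V chains Col5a1 and Col5a2, which set fibril width, by 1.56 ± 0.039 and 1.64 ± 0.036. Fbn2, a microfibril protein of developing tissue, stood at 8.87, 7.91 and 6.33 CPM in the CHIR libraries and 263, 257 and 229 CPM in the TGFb1 + CHIR libraries, a change of 5.01 ± 0.10. Col8a1, a short-chain collagen, stood at 9.5, 9.39 and 8.77 CPM in the CHIR libraries and 245, 239 and 283 CPM in the TGFb1 + CHIR libraries, a change of 4.79 ± 0.075. Col12a1, which links collagen fibrils, rose by 3.93 ± 0.044, and Tnc, tenascin-C of wounds, by 3.42 ± 0.084. For each of these genes the groups lay apart.

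The matrix genes that fell included 5 small leucine-rich proteoglycans. Dcn, decorin, stood at 2914, 2878 and 3153 CPM in the CHIR libraries and 96.7, 89.8 and 89 CPM in the TGFb1 + CHIR libraries, a change of -5.02 ± 0.048. Lum, lumican, changed by -3.97 ± 0.22, Prelp by -3.92 ± 0.057, Ogn, osteoglycin, by -2.60 ± 0.077 and Aspn, asporin, by -2.87 ± 0.14, while Fmod, fibromodulin, missed the test at -0.011 ± 0.055. Tnxb, tenascin-X, whose loss causes a form of Ehlers-Danlos syndrome, stood at 801, 787 and 833 CPM in the CHIR libraries and 4.04, 2.37 and 3.16 CPM in the TGFb1 + CHIR libraries. It was near 0 in all 3 TGFb1 + CHIR libraries, a change of -7.95 ± 0.18. Eln, tropoelastin, stood at 11.7, 12.9 and 12.8 CPM in the CHIR libraries and 1.22, 1.78 and 1.02 CPM in the TGFb1 + CHIR libraries, a change of -3.22 ± 0.18. Fn1, fibronectin, changed by -0.22 ± 0.037 and the type VI chains Col6a1 and Col6a2 by -1.55 ± 0.042 and -1.63 ± 0.049.

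Basement membrane genes mostly fell. Of 21 tested, 5 rose and 14 fell (median -0.97). Col15a1, a collagen at the border of basement membranes (ENSMUSG00000028339, chromosome 4, 47208161 to 47313167), stood at 274, 252 and 261 CPM in the CHIR libraries and 2.52, 2.67 and 2.65 CPM in the TGFb1 + CHIR libraries. The groups lay far apart, a change of -6.65 ± 0.10 (adjusted p = 1.54e-39). The type IV chains Col4a1 and Col4a2 changed by -2.78 ± 0.044 and -2.43 ± 0.042, Col4a6 by -3.25 ± 0.18, and Lama2, the laminin chain of muscle and mesenchyme, by -3.80 ± 0.13. Lama1, the laminin chain of early embryos, went against them and stood at 15.1, 14.3 and 18.3 CPM in the CHIR libraries and 304, 303 and 240.3 CPM in the TGFb1 + CHIR libraries, a change of 4.16 ± 0.15.

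Collagen processing genes rose together for the enzymes that modify the chains and less evenly for those that trim and link them outside the cell. Of 26 tested, 18 rose and 7 fell (median 0.98). The prolyl hydroxylases P4ha1 and P4ha2 rose by 1.62 ± 0.041 and 2.02 ± 0.045, the lysyl hydroxylases Plod1 and Plod3 by 1.61 ± 0.043 and 1.31 ± 0.042, and the collagen chaperone Serpinh1 by 1.01 ± 0.036. Of the crosslinking enzymes, Loxl2 rose by 1.32 ± 0.038 and Lox by 0.26 ± 0.053, while Loxl1 changed by -1.26 ± 0.043. Adamts2, which removes the amino-terminal propeptide, changed by -1.98 ± 0.039. Pcolce2, an enhancer of the carboxy-terminal protease, stood at 42.1, 44.2 and 40.0 CPM in the CHIR libraries and 2.56, 2.96 and 2.04 CPM in the TGFb1 + CHIR libraries, a change of -4.06 ± 0.12 with no overlap.

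Contractile and focal adhesion genes rose by small amounts. Of 32 tested, 24 rose and 7 fell (median 0.50). Acta2, smooth muscle actin and the usual marker of myofibroblasts (ENSMUSG00000035783, chromosome 19, 34241090 to 34255590), stood at 624, 663 and 565 CPM in the CHIR libraries and 1013, 1034 and 1008 CPM in the TGFb1 + CHIR libraries. The groups did not overlap and the change was 0.72 ± 0.049 (adjusted p = 6.48e-15). Tagln, transgelin, rose by 0.47 ± 0.074, Cnn1, calponin, by 1.86 ± 0.07, Pdlim7, a stress fibre adaptor, by 1.91 ± 0.053 and Itga5, the fibronectin receptor chain, by 1.79 ± 0.036. Myh11, smooth muscle myosin, changed by -4.63 ± 0.48, Synpo2, an actin-bundling protein, by -3.48 ± 0.18 and Itga11, a collagen receptor chain, by -2.23 ± 0.05.

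Markers of fibrotic matrix fibroblasts mostly rose. Of 19 tested, 14 rose and 5 fell (median 1.14). Cthrc1, a secreted protein of these cells, stood at 3.69, 4.87 and 4.43 CPM in the CHIR libraries and 37.9, 37.5 and 42.1 CPM in the TGFb1 + CHIR libraries. The groups lay apart, a change of 3.18 ± 0.12. Postn, periostin, stood at 3628, 3618 and 3639 CPM in the CHIR libraries and 6504, 6412 and 6459 CPM in the TGFb1 + CHIR libraries, a change of 0.83 ± 0.035 with no overlap. Inhba, the activin A chain, rose by 3.78 ± 0.059, Runx1, a transcription factor, by 2.91 ± 0.054 and Spp1, osteopontin, by 2.53 ± 0.10. Igfbp5, an IGF binding protein, changed by -4.33 ± 0.13 and Sfrp1, a Wnt antagonist, by -1.87 ± 0.095.

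**Figure D2:**
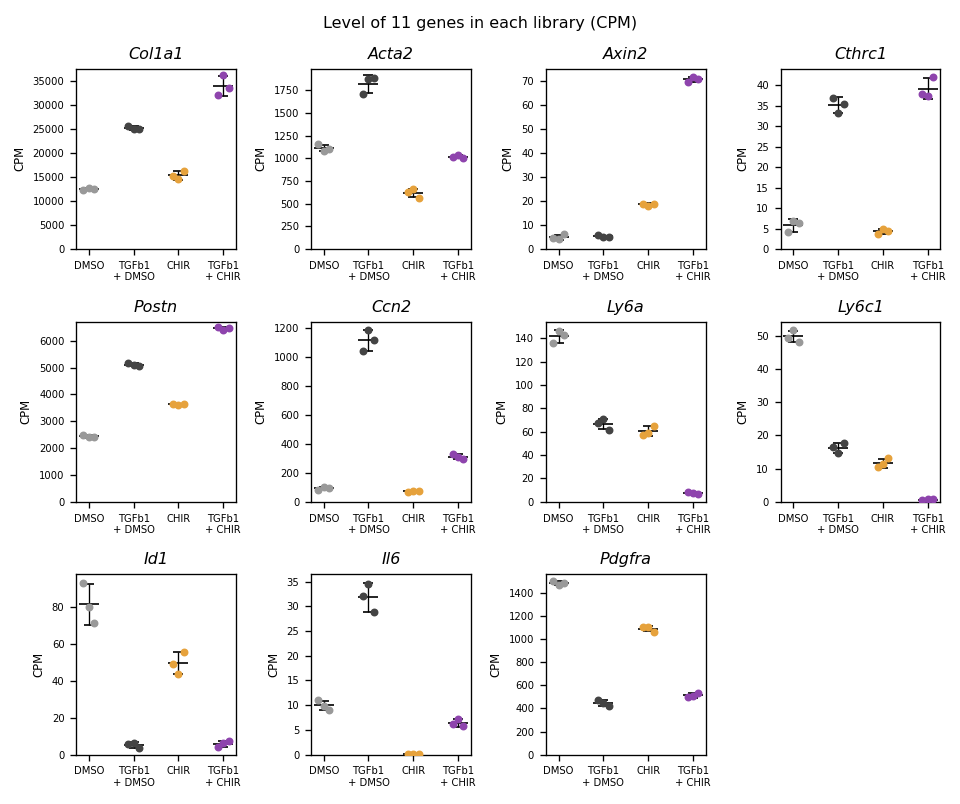
CPM of 11 genes (y axes, each from 0) in the 3 libraries of each of 4 groups, with points for libraries and bars for the mean and SD. Col1a1 rose in both TGFb1 groups, Axin2 was higher in TGFb1 + CHIR than in every other group, and Ly6a and Ly6c1 were lowest there.

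Most genes of BMP signalling fell. Of 20 tested, 6 rose and 12 fell (median -0.67). Id1, an inhibitor of basic helix-loop-helix factors and the usual BMP readout, stood at 49.2, 43.6 and 55.5 CPM in the CHIR libraries and 4.11, 6.12 and 7.33 CPM in the TGFb1 + CHIR libraries. The groups did not overlap, a change of -3.10 ± 0.21 (adjusted p = 5.89e-10). Id2, Id3 and Id4 changed by -3.40 ± 0.082, -1.68 ± 0.072 and -3.10 ± 0.12, so all 4 family members fell. Atoh8, a BMP target, changed by -4.18 ± 0.13 and the BMP effector Smad9 by -2.96 ± 0.13. Msx2, a BMP target, and the ligand Bmp4 went the other way and rose by 1.68 ± 0.39 and 1.97 ± 0.45 at under 3 CPM, and Bmp4 fell beside the solvent by -2.53 ± 0.41, a difference of 4.50 ± 0.61. The antagonist Fst, follistatin, rose by 1.36 ± 0.055, and Grem1, gremlin 1, changed by -0.74 ± 0.052.

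Wnt target genes rose in cells that held CHIR in both groups. Of 24 tested, 18 rose and 6 fell (median 1.37). Axin2, a scaffold of the beta-catenin breakdown complex and the standard Wnt target (ENSMUSG00000000142, chromosome 11, 108920349 to 108950783), stood at 18.9, 17.9 and 19 CPM in the CHIR libraries and 69.7, 71.6 and 71 CPM in the TGFb1 + CHIR libraries. The libraries of a group lay within a few CPM of each other and the groups far apart, a change of 1.93 ± 0.10 (adjusted p = 1.54e-22). Nkd2, a feedback inhibitor, stood at 8.98, 8.4 and 10.4 CPM in the CHIR libraries and 478, 494 and 565 CPM in the TGFb1 + CHIR libraries, a change of 5.80 ± 0.10. Tcf7 and Lef1, the nuclear partners of beta-catenin, rose by 3.25 ± 0.13 and 2.25 ± 0.12. The feedback genes Nkd1, Notum and Znrf3 rose by 1.90 ± 0.071, 1.80 ± 0.27 and 0.74 ± 0.085. Of the members that fell, Sox9 changed most, by -2.96 ± 0.082. Dkk3, a relative of the Dickkopf antagonists, changed by -1.69 ± 0.048, Ccnd2, cyclin D2, by -0.51 ± 0.052 and Tcf7l2 by -0.71 ± 0.082.

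Wnt ligands, receptors and antagonists moved in equal numbers each way, 13 up and 13 down of 29 tested (median -0.48). Wnt2 stood at 2.42, 1.64 and 2.24 CPM in the CHIR libraries and 76.9, 70.3 and 75.5 CPM in the TGFb1 + CHIR libraries, a change of 5.15 ± 0.17. Wnt9a rose by 5.07 ± 0.12, Wnt11 by 2.12 ± 0.17 and Rspo1, an R-spondin, by 3.38 ± 0.22. Wnt7b had no counts in CHIR and was at least 12.5-fold higher, at under 1 CPM. The secreted antagonists Frzb, Sfrp1, Sfrp2 and Sfrp4 fell. Frzb stood at 21.7, 23.5 and 23.2 CPM in the CHIR libraries and 0.667, 0.988 and 0.356 CPM in the TGFb1 + CHIR libraries, a change of -5.07 ± 0.22. Sfrp1, Sfrp2 and Sfrp4 changed by -1.87 ± 0.095, -3.43 ± 0.11 and -4.99 ± 0.15. Rspo2 and Rspo3 also fell, by -5.56 ± 0.22 and -2.72 ± 0.10 on the log2 scale.

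All 36 cell cycle genes tested rose (median 2.28), beside 33.8% of all genes. Mki67, the marker of cycling cells, stood at 28, 24.4 and 25.8 CPM in the CHIR libraries and 227, 219 and 197 CPM in the TGFb1 + CHIR libraries. The groups lay far apart, a change of 3.04 ± 0.10 (adjusted p = 4.39e-14). Rrm2, which makes deoxynucleotides, stood at 2.42, 2.32 and 1.95 CPM in the CHIR libraries and 35, 37.2 and 34.6 CPM in the TGFb1 + CHIR libraries, a change of 3.98 ± 0.10. Ccnb1, mitotic cyclin B1, rose by 3.77 ± 0.23, Plk1, a mitotic kinase, by 3.59 ± 0.11, Bub1 of the spindle checkpoint by 3.43 ± 0.11 and Top2a, topoisomerase II, by 2.84 ± 0.078. The licensing genes rose less, with Mcm4 at 0.19 ± 0.055 and Mcm7 at 0.30 ± 0.091. RNA levels do not count dividing cells.

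The cell cycle inhibitors and p53 targets were mixed, 9 up and 8 down of 22 tested (median -0.063). Genes at large were mixed too, with 33.8% up and 32.3% down. Pmaip1, the BH3-only protein NOXA, rose by 4.07 ± 0.10 and Cdkn1a, p21, by 0.76 ± 0.07. Cdkn1c, p57, stood at 5.89, 7.15 and 5.26 CPM in the CHIR libraries and 0.408, 0.395 and 0.56 CPM in the TGFb1 + CHIR libraries, a change of -3.75 ± 0.31. Trp53inp1, a p53 target, changed by -2.37 ± 0.10, Trp53 by -0.48 ± 0.056 and Cdkn1b, p27, by -0.75 ± 0.05. Cdkn2d, the inhibitor p19, rose by 1.54 ± 0.093, so p21 and p19 rose while p57 and p27 fell.

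Glycolytic genes rose together. Of 27 tested, 24 rose and 1 fell (median 2.003). Slc16a3, the lactate exporter MCT4, stood at 2.12, 1.71 and 2.19 CPM in the CHIR libraries and 99.1, 89.6 and 100.1 CPM in the TGFb1 + CHIR libraries. It was low in every CHIR library and high in every TGFb1 + CHIR library, a change of 5.59 ± 0.09 (adjusted p = 1.94e-45). Pfkp, phosphofructokinase, rose by 3.26 ± 0.055, Hk2, hexokinase, by 2.57 ± 0.056, Ldha, lactate dehydrogenase, by 2.13 ± 0.046 and Pkm, pyruvate kinase, by 2.003 ± 0.04. Car12, a carbonic anhydrase, rose by 3.35 ± 0.23, and Adm, adrenomedullin, was the member that fell, by -0.49 ± 0.12 on this scale. Several of these genes have processed copies in the genome: Pgk1 held only about 1 CPM in CHIR and rose by 2.85 ± 0.19, and Gapdh held 45 counts in all 21 libraries, so the counts of such genes are uncertain.

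Genes of the amino acid response, whose products make serine, glycine and proline for collagen, rose in 19 of 20 cases and fell in 1 (median 1.33). Cth, which makes cysteine, stood at 5.7, 5.36 and 5.02 CPM in the CHIR libraries and 88.4, 84 and 93.6 CPM in the TGFb1 + CHIR libraries, a change of 4.04 ± 0.11. Mthfd2 of mitochondrial folate metabolism rose by 2.41 ± 0.052, the serine enzymes Psph and Psat1 by 2.36 ± 0.081 and 1.57 ± 0.043, and Aldh18a1 and Pycr1 of proline synthesis by 1.37 ± 0.041 and 1.21 ± 0.065. Atf4, the factor that drives them, rose by 0.95 ± 0.042. Ddit3, the stress factor CHOP, was the member that fell (-0.46 ± 0.09).

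Lipid and secretory genes rose by small amounts. Of 28 sterol and fatty acid synthesis genes 23 rose and 2 fell (median 0.42). Scd2, a fatty acid desaturase, rose by 2.24 ± 0.039, while Insig1, which holds the pathway back, changed by -1.05 ± 0.049 and Elovl6, a fatty acid elongase, by -1.08 ± 0.066. Of 26 secretory pathway and unfolded protein response genes 17 rose and 4 fell (median 0.18). Kdelr3, a retrieval receptor, rose by 1.28 ± 0.041 and Creb3l1, a factor for collagen secretion, by 1.17 ± 0.046. Dnajb9, a co-chaperone, changed by -0.72 ± 0.089. Hspa5, the chaperone BiP, rose by 0.21 ± 0.041, and Sdf2l1 changed by -0.31 ± 0.13 (adjusted p = 0.0391), a call that was lost without a filter, in limma voom and without either of CHIR replicates 2 and 3 or TGFb1 + CHIR replicates 2 and 3. Without TGFb1 + CHIR replicate 3, 2 genes of this list fell.

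The innate immune genes of these fibroblasts were widely lower. Of 18 acute phase and complement genes 1 rose and 15 fell (median -2.54). C3, the central complement component (ENSMUSG00000024164, chromosome 17, 57203970 to 57228136), stood at 4185, 4118 and 4034 CPM in the CHIR libraries and 22.2, 23.3 and 20.01 CPM in the TGFb1 + CHIR libraries. The highest TGFb1 + CHIR library was far below the lowest CHIR library, a change of -7.55 ± 0.067 (adjusted p = 7.84e-42). Hp, haptoglobin, stood at 34.7, 35.1 and 31.4 CPM in the CHIR libraries and 0.0741, 0.0494 and 0.204 CPM in the TGFb1 + CHIR libraries, a change of -8.27 ± 0.32. Clu, clusterin, changed by -6.89 ± 0.14. Steap4, a metalloreductase, had 3 counts with TGFb1 and was 87.7-fold lower, with a 95% counting interval of 29.7 to 428. Ptx3, pentraxin 3, was the member that rose (1.33 ± 0.10).

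Chemokine genes fell in 11 of 15 cases and rose in 2 (median -2.17). Cxcl12, which holds CXCR4-bearing cells in place, stood at 833, 836 and 846 CPM in the CHIR libraries and 45.2, 41 and 35 CPM in the TGFb1 + CHIR libraries. No library of one group reached the other, a change of -4.37 ± 0.059. Cx3cl1, fractalkine, stood at 248, 229.6 and 260.3 CPM in the CHIR libraries and 6.08, 6.82 and 5.04 CPM in the TGFb1 + CHIR libraries, a change of -5.36 ± 0.079. Cxcl13, a B cell attractant, had no counts with TGFb1 and was at least 130.0-fold lower. Cxcl16, the ligand of the receptor Cxcr6 that rose, changed by -4.03 ± 0.13. Cxcl10, an interferon-induced chemokine, rose by 1.59 ± 0.39, and Ccl8 by 1.39 ± 0.29.

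Cytokine and growth factor genes divided into 12 that rose and 15 that fell of 34 tested (median -0.35). Of all genes, 33.8% rose and 32.3% fell. Lif, an IL-6 family cytokine, stood at 2.38, 2.66 and 2.58 CPM in the CHIR libraries and 116, 121 and 117 CPM in the TGFb1 + CHIR libraries. The groups lay far apart, a change of 5.53 ± 0.091 (adjusted p = 3.99e-45). Il6 stood at 0.112, 0.228 and 0.146 CPM in the CHIR libraries and 6.23, 7.26 and 5.75 CPM in the TGFb1 + CHIR libraries, low in every library, a change of 5.26 ± 0.27. Fgf18 rose by 4.57 ± 0.17, Pdgfa by 2.32 ± 0.066 and Vegfa by 2.03 ± 0.041. Of the factors that lung mesenchyme makes for epithelium, Fgf7 stood at 266, 280.0 and 249 CPM in the CHIR libraries and 9.67, 9.83 and 11.6 CPM in the TGFb1 + CHIR libraries, a change of -4.68 ± 0.088, and Hgf changed by -2.95 ± 0.089. Fgf10 held 24 counts in CHIR and 3 with TGFb1, 7.26-fold lower, with a 95% counting interval of 2.21 to 37.7. Vegfd, a lymphatic growth factor, changed by -4.98 ± 0.077 and Igf1 by -2.68 ± 0.10. Gdf10, a TGFb superfamily member, had no counts with TGFb1 and was at least 26.4-fold lower, a call that DESeq2 did not make.

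Of 22 NF-kB feedback genes and targets 8 rose and 13 fell (median -0.27). Vcam1, an adhesion molecule for leukocytes, stood at 348, 364 and 368 CPM in the CHIR libraries and 57.4, 59.3 and 52.8 CPM in the TGFb1 + CHIR libraries, a change of -2.67 ± 0.047. Icam1 and Traf1 passed as lower from levels under 1 CPM, each with 1 count with TGFb1. Nfkbiz, a nuclear cofactor of NF-kB, rose by 2.49 ± 0.10, Ptgs2, cyclooxygenase 2, by 1.999 ± 0.12, and Cd40 had no counts in CHIR and was at least 3.08-fold higher at under 1 CPM.

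Interferon-stimulated genes fell, with 3 up and 19 down of 32 tested (median -1.19, or -1.06 with the genes at 0 in 1 group set to their bound). Their summed level was 308 to 368 CPM in CHIR and 177 to 235 CPM in TGFb1 + CHIR. Parp14, an ADP-ribosyltransferase induced by interferon, stood at 15.9, 17.6 and 18.7 CPM in the CHIR libraries and 1.74, 1.78 and 0.866 CPM in the TGFb1 + CHIR libraries, a change of -3.54 ± 0.34. Gbp2, a guanylate-binding protein, stood at 7.004, 6.96 and 10.2 CPM in the CHIR libraries and 1.26, 1.04 and 0.662 CPM in the TGFb1 + CHIR libraries, a change of -2.97 ± 0.31. Both had groups that did not overlap. Mx1, an antiviral GTPase, held 20 counts in CHIR and 2 with TGFb1, 9.08-fold lower, with a 95% counting interval of 2.2 to 80.1. Rsad2, viperin, rose by 2.65 ± 0.70 and Oasl1 by 2.38 ± 0.36. Oas1a, at 0 in CHIR and with overlapping groups, was at least 2.73-fold higher on average, a call lost in limma voom and without TGFb1 + CHIR replicate 1. The Oas and Ifit genes are families of close copies.

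None of 14 antigen presentation genes rose and 12 fell (median -1.51). The class I genes H2-K1 and H2-D1 changed by -1.80 ± 0.06 and -1.31 ± 0.059, and B2m, their light chain, by -0.57 ± 0.04. Tap1, the peptide transporter, stood at 5.29, 7.07 and 9.16 CPM in the CHIR libraries and 1.3, 1.78 and 0.458 CPM in the TGFb1 + CHIR libraries, a change of -2.57 ± 0.33 with no overlap. Psmb8 of the immunoproteasome changed by -3.47 ± 0.44, and Psmb9 had no counts with TGFb1, at least 5.34-fold lower. The class I genes are near-identical to each other, so the division of their reads is uncertain.

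Immediate early genes, which cells switch on within minutes of a signal, rose. Of 23 tested, 16 rose and 3 fell (median 0.54). Fos, a subunit of AP-1 (ENSMUSG00000021250, chromosome 12, 85473890 to 85477273), stood at 8.42, 6.96 and 6.96 CPM in the CHIR libraries and 150.2, 144 and 173 CPM in the TGFb1 + CHIR libraries. Every TGFb1 + CHIR library was above every CHIR library, a change of 4.38 ± 0.22 (adjusted p = 3.77e-11). Egr1, a zinc finger factor, stood at 107, 109 and 106 CPM in the CHIR libraries and 1126, 1008 and 1213 CPM in the TGFb1 + CHIR libraries, a change of 3.38 ± 0.11. Fosb rose by 3.30 ± 0.27, Junb by 2.69 ± 0.10, Jun by 1.31 ± 0.074 and Ier3 by 2.74 ± 0.10. Klf2 and Nr4a3 went the other way, by -1.25 ± 0.17 and -1.17 ± 0.21.

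Markers of the resting fibroblast states fell. Of 22 adventitial progenitor markers 5 rose and 15 fell (median -1.79). Opcml, a surface protein, stood at 61.8, 65.4 and 66.7 CPM in the CHIR libraries and 0.445, 0.593 and 0.255 CPM in the TGFb1 + CHIR libraries, a change of -7.20 ± 0.20. Clec3b, tetranectin, changed by -4.55 ± 0.45, and Cd34, a progenitor marker, by -2.09 ± 0.14. Hsd11b1, which regenerates active glucocorticoid, stood at 12, 10.8 and 11.8 CPM in the CHIR libraries and 59.2, 59.2 and 80.1 CPM in the TGFb1 + CHIR libraries, above the CHIR libraries in every case, a change of 2.52 ± 0.27. Ackr3, an atypical receptor for CXCL12, rose by 1.66 ± 0.19.

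Alveolar and lipid-handling fibroblast genes fell as well, 16 of 21 tested with 4 up (median -3.53). Itga8, an integrin of alveolar fibroblasts, stood at 18.8, 18.3 and 16.3 CPM in the CHIR libraries and 0.185, 0.0988 and 0.56 CPM in the TGFb1 + CHIR libraries. It was close to 0 with TGFb1, a change of -6.02 ± 0.31. Adh1, alcohol dehydrogenase, changed by -6.45 ± 0.23, Pparg, the lipid regulator, by -2.10 ± 0.12 and Lpl, lipoprotein lipase, by -2.03 ± 0.051. Scn7a, a sodium channel, had no counts with TGFb1 and was at least 14.2-fold lower. Npnt, nephronectin, rose by 1.46 ± 0.17. Pdgfra, the growth factor receptor that marks lung fibroblasts at large, stood at 1099, 1107 and 1062 CPM in the CHIR libraries and 501, 503 and 536 CPM in the TGFb1 + CHIR libraries, a change of -1.09 ± 0.042 with no overlap.

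Matrix proteases and their inhibitors were evenly divided, 13 up and 15 down of 30 tested (median -0.11). All genes divided into 33.8% up and 32.3% down. Mmp13, a collagenase (ENSMUSG00000050578, chromosome 9, 7272514 to 7283331), stood at 26.8, 24.1 and 26.7 CPM in the CHIR libraries and 2614, 2347 and 2749 CPM in the TGFb1 + CHIR libraries. It was a minor transcript in every CHIR library and rose 99.4-fold, a change of 6.64 ± 0.13 (adjusted p = 1.03e-16). Mmp10, stromelysin 2, stood at 5.44, 5.51 and 3.99 CPM in the CHIR libraries and 42.2, 46.9 and 58.3 CPM in the TGFb1 + CHIR libraries, a change of 3.29 ± 0.20. Timp3, a protease inhibitor held in the matrix, stood at 265, 285 and 266 CPM in the CHIR libraries and 2674, 2552 and 2343 CPM in the TGFb1 + CHIR libraries, a change of 3.21 ± 0.095. Adamts5, an aggrecan-cleaving enzyme, changed by -3.13 ± 0.063 and Mmp9, a gelatinase, by -2.94 ± 0.12. Mmp2 changed by -0.14 ± 0.037 and Mmp14, which activates it, by 0.13 ± 0.037. The upstream stretches of Mmp13 and Mmp10 were printed above because they hold the AP-1 letters, so that match is no result about proteases.

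All 10 mitochondrially encoded protein genes tested fell (median -1.04), in step with the share of mitochondrial counts given above. mt-Cytb stood at 2962, 3401 and 2890.4 CPM in the CHIR libraries and 1698, 1448 and 1403 CPM in the TGFb1 + CHIR libraries, a change of -1.02 ± 0.12. The groups did not overlap. mt-Atp6 and mt-Co2 held under 6 CPM in these libraries, and nuclear copies of mitochondrial genes can share their reads.

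**Figure D3:**
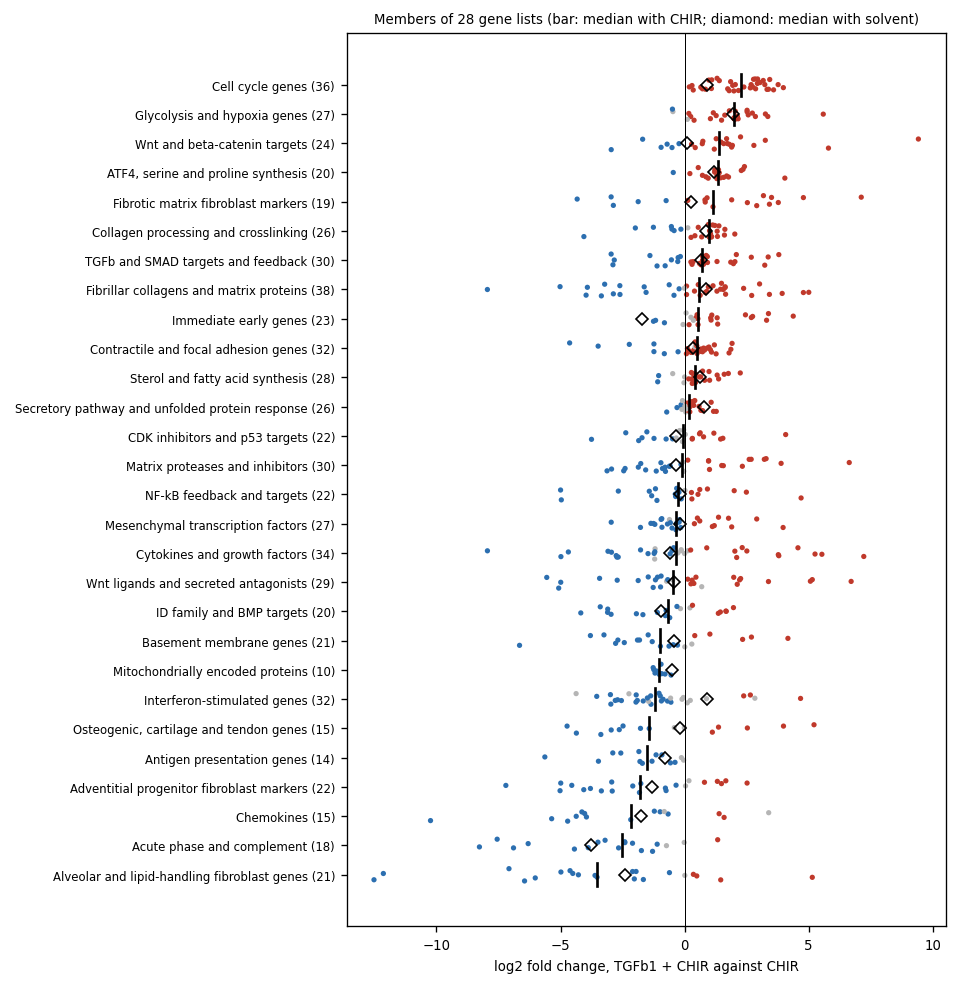
Log2 fold change of TGFb1 + CHIR against CHIR (x axis) for each gene tested of 28 lists (rows, with the number tested), coloured by whether it rose, fell or missed the test, with a bar at the list's median and a diamond at its median beside the solvent. Cell cycle genes lie to the right of 0 and have the highest median, 2.28, alveolar and lipid-handling genes the lowest, -3.53.

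The same cytokine beside the solvent gave a test of which responses differed with CHIR, in a comparison that shares no library with the first. TGFb1 + DMSO against DMSO called 10037 genes (61.97%), 4973 (30.7%) higher and 5064 (31.3%) lower. Across genes the changes correlated at a Pearson r of 0.73 and a Spearman rho of 0.68, as a description over genes that are not independent. Of 7976 genes that passed in both, 89.5% had the same sign, 7137 of all genes tested (44.1%). A further 2739 (16.9%) passed in CHIR alone, 2061 (12.7%) beside the solvent alone and 3421 (21.1%) in neither, where passing in 1 response alone is not a test of a difference. A gene changed by a median of 0.56 in CHIR and 0.47 beside the solvent, in size on the log2 scale. The difference between the responses, as an interaction term, passed for 6681 genes (41.2%), 3397 (20.97%) higher with CHIR and 3284 (20.3%) lower. Opposite calls were made for 839 genes (5.18%), 432 (2.67%) higher and 407 (2.51%) lower in CHIR.

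**Figure D4:**
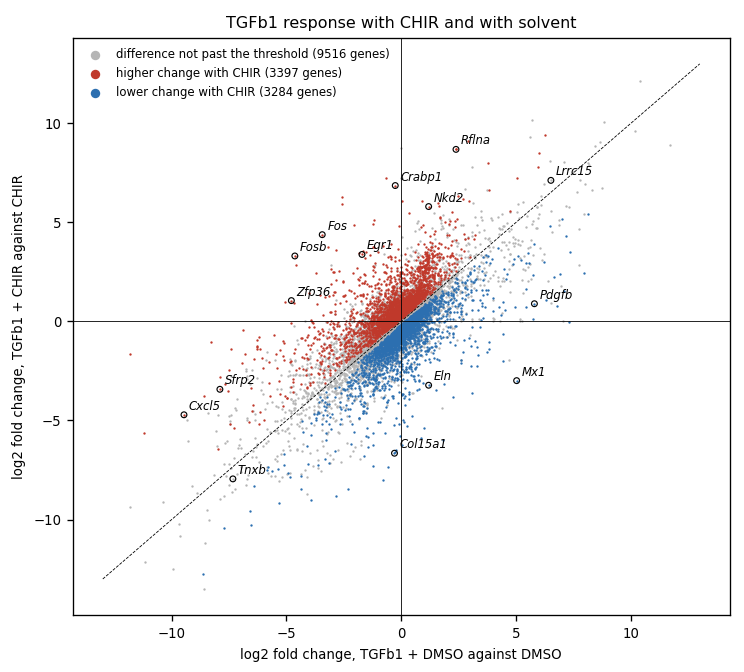
Log2 fold change by TGFb1 in CHIR (y axis) against that beside the solvent (x axis), each point 1 gene of 16197, coloured where the difference passed the test, with a dashed line of equal change. Most genes called in both have changes of equal sign, 7137 against 839 of opposite sign.

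Type I collagen, periostin and smooth muscle actin rose in both responses. Acta2 rose by 0.71 ± 0.049 beside the solvent, and its difference between the responses was 0.014 ± 0.069 (adjusted p = 0.902), and it turned to -0.38 with the TGFb1 group labelled without solvent in place of TGFb1 + DMSO. Col1a1 rose by 1.01 ± 0.037 beside the solvent, and its difference of 0.13 ± 0.052 (adjusted p = 0.0358) was lost in DESeq2, with RLE factors, with the filter of 1 CPM in 3 libraries, with mitochondrial and rRNA genes left out, with the TGFb1 group labelled without solvent (0.0037) and without any 1 of CHIR replicates 1 and 2, DMSO replicates 2 and 3, TGFb1 + CHIR replicate 2 and TGFb1 + DMSO replicates 2 and 3. Postn rose by 1.06 ± 0.035, with a difference of -0.23 ± 0.049. Of the 38 matrix genes, 26 rose and 11 fell beside the solvent, with 14 responses higher and 16 lower with CHIR. Tnc rose by 1.75 ± 0.078 beside the solvent (difference 1.67 ± 0.11) and Col12a1 by 0.99 ± 0.039 (difference 2.94 ± 0.056). Cthrc1 rose by 2.61 ± 0.11, and its difference of 0.57 ± 0.16 was lost without DMSO replicate 2, at 0.40, and with the TGFb1 group labelled without solvent, at 0.21.

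In the list of TGFb targets, more responses were lower with CHIR than higher. Both responses had 20 genes up of 30, with 10 down in CHIR and 7 beside the solvent (medians 0.69 and 0.67). The difference was lower with CHIR for 18 and higher for 6, against 20.3% and 20.97% of all genes. A lower difference can mean a smaller rise, a larger fall or a rise turned to a fall. Ccn2 stood at 84.5, 101 and 97 CPM in DMSO and 1038, 1183 and 1117 CPM in TGFb1 + DMSO. It rose by 3.56 ± 0.068 there, and the difference was -1.48 ± 0.091 (adjusted p = 2.51e-12). Skil rose by 3.05 ± 0.053 beside the solvent (difference -1.02 ± 0.072) and Pmepa1 by 3.55 ± 0.042 (-0.32 ± 0.054). Smad3 fell by more with CHIR, the difference being -1.43 ± 0.074.

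Wnt targets responded differently. Beside the solvent 9 of 24 rose and 11 fell, and 16 responses were higher with CHIR and 7 lower. Axin2 stood at 4.69, 4.13 and 6.16 CPM in DMSO and 5.67, 5.04 and 5.19 CPM in TGFb1 + DMSO. The groups overlapped there and the change of 0.10 ± 0.14 missed the test, while the difference was 1.83 ± 0.17 (adjusted p = 7.02e-13). Nkd1 and Notum fell by -1.06 ± 0.075 and -1.39 ± 0.39 beside the solvent, against the rises above. Lgr5 stood at 0, 0.369 and 0 CPM in DMSO and 11.3, 10.8 and 9.22 CPM in TGFb1 + DMSO. Its counts before TGFb1 lay in 1 of the DMSO libraries, so the difference between the responses, 3.16 ± 0.9997, turned to -1.65 without DMSO replicate 2. Ccn4 and Lgr6 rose more beside the solvent, with differences of -0.60 ± 0.055 and -4.72 ± 0.30.

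Cell cycle genes rose in both responses, with all 36 up in each, and with a median of 0.90 beside the solvent and 2.28 in CHIR. The difference was higher with CHIR for 29 genes and lower for none. Mki67 stood at 193, 207 and 232 CPM in DMSO, 438, 384 and 402 in TGFb1 + DMSO, 28, 24.4 and 25.8 in CHIR and 227, 219 and 197 in TGFb1 + CHIR. The CHIR libraries were the lowest of the 4 groups. The difference was 2.09 ± 0.13.

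Immediate early genes gave responses of opposite sign. Beside the solvent 3 of 23 rose and 18 fell (median -1.71), and 20 responses were higher with CHIR. Fos stood at 1644, 1475 and 1431 CPM in DMSO, 166, 135 and 118 in TGFb1 + DMSO, 8.42, 6.96 and 6.96 in CHIR and 150.2, 144 and 173 in TGFb1 + CHIR. The TGFb1 groups lay at like levels, whereas DMSO was far above CHIR, so the opposite signs come with a starting level that differed. Fos changed by -3.44 ± 0.17 beside the solvent, a difference of 7.82 ± 0.27 (adjusted p = 1.3e-12). Fosb stood at 657, 512 and 459.6 CPM in DMSO, 26.7, 20.9 and 18.2 in TGFb1 + DMSO, 2.35, 2.09 and 2.34 in CHIR and 21.2, 24.1 and 21.7 in TGFb1 + CHIR, in the same order, with a difference of 7.94 ± 0.30. Zfp36, which breaks down cytokine mRNA, stood at 1603, 1372 and 1291 CPM in DMSO, 56.7, 48.9 and 49.1 in TGFb1 + DMSO, 35.2, 32.8 and 36.9 in CHIR and 66.4, 70.5 and 80.6 in TGFb1 + CHIR, with a difference of 5.84 ± 0.18. Their summed level was 10212 to 11809.6 CPM in DMSO, 2757 to 3183 in TGFb1 + DMSO, 1084 to 1108 in CHIR and 2932 to 3270.4 in TGFb1 + CHIR.

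Interferon-stimulated genes also reversed, with 22 of 32 up and 2 down beside the solvent (median 0.90). The response was lower with CHIR for 25 and higher for none. The summed level was 389.7 to 548 CPM in DMSO and 710.2 to 876 in TGFb1 + DMSO, above both CHIR groups. Usp18, which trims ISG15 from proteins, stood at 0.714, 2.62 and 2.27 CPM in DMSO, 13.1, 9.24 and 11.8 in TGFb1 + DMSO, 1.19, 2.51 and 1.95 in CHIR and 0.445, 0.692 and 0.305 in TGFb1 + CHIR. It rose by 2.61 ± 0.38 beside the solvent, and in CHIR it changed by -1.96 ± 0.67 (adjusted p = 0.0181), a call that was lost without CHIR replicate 2 and without TGFb1 + CHIR replicate 1 or 3. Mx1 stood at 0.068, 0.0336 and 0 CPM in DMSO, 1.16, 1.02 and 1.76 in TGFb1 + DMSO, 0.186, 0.342 and 0.292 in CHIR and 0, 0.0988 and 0 in TGFb1 + CHIR, and was highest in TGFb1 + DMSO. Iigp1, an interferon-induced GTPase, had a difference of -4.04 ± 0.54.

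Several basement membrane genes fell further with TGFb1 in CHIR than beside the solvent. Col15a1 stood at 39, 33.8 and 32.3 CPM in DMSO and 29.7, 29.1 and 26.9 CPM in TGFb1 + DMSO, a change of -0.30 ± 0.076, which turned to 0.31 with the TGFb1 group labelled without solvent. CHIR without TGFb1 held the highest level of the 4 groups, and the difference between the responses was -6.36 ± 0.13 (adjusted p = 1.08e-33). Col4a1 changed by -0.41 ± 0.041 beside the solvent (difference -2.37 ± 0.059) and Lama2 by -0.77 ± 0.11 (-3.02 ± 0.17). The elastic fibre gene Eln stood at 14.4, 13.8 and 15.2 CPM in DMSO and 38.5, 31.3 and 29.4 CPM in TGFb1 + DMSO. It rose by 1.19 ± 0.11 there and fell in CHIR, a difference of -4.41 ± 0.21 (adjusted p = 1.52e-22). Of 21 basement membrane responses 12 were lower with CHIR and 4 higher. Frzb and Nfatc2, a calcium-regulated transcription factor, had differences of -4.14 ± 0.28 and -4.39 ± 0.54.

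Secretory pathway genes rose beside the solvent and barely in CHIR. There 25 of 26 rose and 0 fell (median 0.77), and the response was lower with CHIR for 21 and higher for 1. Hspa5 stood at 1081, 1025 and 1016 CPM in DMSO and 2084, 2287 and 2189 CPM in TGFb1 + DMSO, a change of 1.07 ± 0.042 without overlap, and the difference was -0.86 ± 0.058. The glycolysis list kept its direction, with 24 of 27 up beside the solvent (median 1.97), and so did the amino acid list with 17 of 20 up (median 1.18).

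The genes whose response differed most included several whose rise was larger in CHIR. Crabp1, a retinoic acid binding protein, stood at 1.43, 1.58 and 1.38 CPM in DMSO, 0.854, 1.43 and 1.35 in TGFb1 + DMSO, 0.112, 0.0761 and 0.195 in CHIR and 13.3, 14.6 and 16.4 in TGFb1 + CHIR. The TGFb1 + CHIR libraries were above all others, a difference of 7.12 ± 0.43 (adjusted p = 1.22e-19). Rflna stood at 0.238, 0.134 and 0 CPM in DMSO, 0.582, 0.852 and 0.658 in TGFb1 + DMSO, 0, 0 and 0.0974 in CHIR and 13.4, 11.5 and 14.7 in TGFb1 + CHIR. Myo18b, a muscle myosin, stood at 0, 0.0336 and 0.0405 CPM in DMSO, 0, 0 and 0 in TGFb1 + DMSO, 0.186, 0.0761 and 0.146 in CHIR and 10.04, 10.4 and 12 in TGFb1 + CHIR. Both were highest in TGFb1 + CHIR, and since 1 of their groups held no more than 3 counts, the fitted difference depends on the prior count and is no bound. Fmo2 fell to or near 0 in both responses, and its fitted difference has the same limit and lost the call in limma voom, without a filter and without any 1 of the TGFb1 + CHIR replicates or TGFb1 + DMSO replicates 1 and 2. Il6 rose by 1.67 ± 0.10 beside the solvent from a higher level, a difference of 3.58 ± 0.34.

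**Figure D5:**
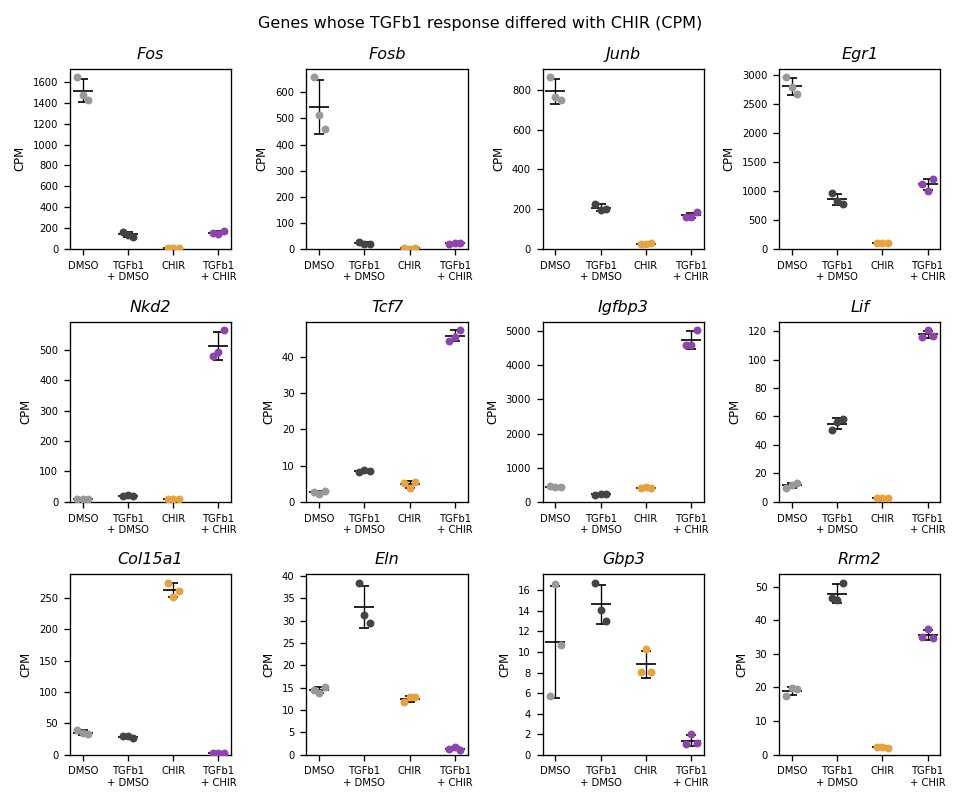
CPM of 12 genes whose response to TGFb1 differed with CHIR (y axes, each from 0) in the 3 libraries of each of 4 groups, with points for libraries and bars for the mean and SD. Fos, Fosb, Junb and Egr1 were highest in DMSO and lowest in CHIR, whereas Nkd2, Tcf7, Igfbp3 and Lif were highest in TGFb1 + CHIR and Col15a1 in CHIR.

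Of the genes with opposite calls, Hsd11b1 stood at 8.33, 8.63 and 9.65 CPM in DMSO, 2.02, 0.852 and 0.585 in TGFb1 + DMSO, 12, 10.8 and 11.8 in CHIR and 59.2, 59.2 and 80.1 in TGFb1 + CHIR. It fell by -2.96 ± 0.40 beside the solvent and rose in CHIR, a difference of 5.48 ± 0.48 (adjusted p = 1.32e-07). Hr, a nuclear corepressor, stood at 3.54, 3.66 and 2.59 CPM in DMSO, 21.4, 19.6 and 18.8 in TGFb1 + DMSO, 6.85, 6.39 and 6.28 in CHIR and 1.56, 1.63 and 1.27 in TGFb1 + CHIR. It was highest in TGFb1 + DMSO and lowest in TGFb1 + CHIR, a difference of -4.72 ± 0.19 (adjusted p = 6.21e-27). Hephl1, a copper oxidase relative, had a difference of -6.43 ± 0.66 and Cpxm2, a carboxypeptidase family member, of 5.26 ± 1.04, both at a few CPM or less. Gm8995, a pseudogene, held 36 counts in CHIR and 2 in TGFb1 + CHIR, 16.3-fold lower, with a 95% counting interval of 4.21 to 140.1, and rose by 2.24 ± 0.32 beside the solvent. Hecw1, Unc45bos and Cyth4 were below 1 CPM in each of the 4 groups on average, and their calls in CHIR were lost on leaving out single libraries: CHIR replicate 1 or 3 or TGFb1 + CHIR replicate 1 for Hecw1, CHIR replicate 3 or TGFb1 + CHIR replicate 1 for Unc45bos, and CHIR replicate 2 or TGFb1 + CHIR replicate 1 for Cyth4.

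Promoter letters were counted for genes that moved, genes that missed the test, all genes tested and all windows of the promoter table. Of 16172 symbols tested, 10822 had a window of 250 bases before to 50 after the start in the RefSeq table, and 120 of the 176 genes named by rule. The AP-1 motif TGANTCA, which reads the same on both strands, was in 4.99% of tested promoters, 7.15% of those of genes that rose at least 2-fold and 6.59% of those that fell at least 2-fold. Over all 32851 windows in the table it was in 7.81%, but these include genes not tested and were not cut to 1 window per gene. The share in both sets of moving genes lay above that of tested promoters and below that of the whole table. These differences were not tested. The SMAD box CAGACA was in 15.9% of tested promoters, 18.7% of those that rose and 18.2% of those that fell at least 2-fold, and 21.04% of all windows. The TCF and LEF core CTTTGA was in 11.8%, 11.7%, 11.98% and 16.0%, and the TEAD core CATTCC in 12.1%, 12.1%, 14.5% and 14.7%, in the same order. In genes that missed the test the AP-1 letters were in 4.76% and the SMAD box in 16.6%. There the TCF and LEF core was in 13.2% and the TEAD core in 12.2%. A window was counted once for each motif it held, on either strand. Of the 12 genes that rose furthest 10 had a window, and Prr9, Htr2b, Lrrc15 and Sprr2b held the AP-1 letters, while of the 12 that fell furthest 9 had one and Clca3a2 held them.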

How the data were processed

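The authors deposited a table of raw counts for 21 stranded total RNA libraries. No aligner, counter or strand setting is given in the sources used here, so overlapping antisense genes cannot be told apart. Per the submitters' processing notes the builds were GRCh38 and GRCm38, with no role stated. The 21 single-library tables equalled their columns. Of 52636 mouse IDs, 52489 were in GENCODE M21, used for names and positions, and 147 (0.00736% of counts) had no name.

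From the deposited counts, genes passing filterByExpr (minimum count 10) were tested with edgeR 4.0.16 in R 4.3.3: TMM factors, 1 coefficient per group over 7 groups, robust quasi-likelihood F-tests, and Benjamini-Hochberg adjustment over 16197 genes. The common coefficient of variation was 0.0582. The fit was tested on simulated data. CPM used TMM-scaled totals, and log2 CPM a prior count of 2. A gene at 0 in a group got a bound against 3 counts over the group. Intervals on 1 to 3 counts were exact (Clopper-Pearson) at 95%.

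By rule, 176 genes were chosen to be named, a few of which are not reported here. They were the 12 highest and 12 lowest past the threshold, with mean log2 CPM of 2 or more, groups that did not overlap and no predicted, clone or RIKEN name, and up to 4 members per list with up to 2 against its direction. To these came 6 per direction for the difference, 6 per direction with opposite responses, 4 per direction at 0 in 1 group, and 12 fixed genes. Other list members were chosen after their values were seen. The comparison and the 28 lists were chosen with earlier results of these data known. Alternatives were DESeq2 1.42.0, limma voom (limma 3.58.1), RLE factors, only the groups compared in the fit, no filter, a filter of 1 CPM in 3 libraries, counts without rRNA and mitochondrial genes, TGFb1 without solvent label, and each replicate left out. Replicates were numbered in record order.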

Additional observations from a re-analysis of the deposited data

Results flagged for a closer look

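Each result here was marked because the response to TGFb1 in CHIR and the response beside the solvent differed by the test of that difference. This held for 6681 genes tested. Values are the log2 response in CHIR less the log2 response beside the solvent, from the edgeR fit.

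The immediate early genes Fos, Fosb and Zfp36 had differences of 7.82 ± 0.27, 7.94 ± 0.30 and 5.84 ± 0.18, and these go with DMSO levels far above those of the other 3 groups. Crabp1 was at 7.12 ± 0.43. Hsd11b1 was at 5.48 ± 0.48 and Cpxm2 at 5.26 ± 1.04. Of the matrix, Wnt antagonist and signalling genes, Col15a1 was at -6.36 ± 0.13, Eln at -4.41 ± 0.21, Frzb at -4.14 ± 0.28 and Nfatc2 at -4.39 ± 0.54. Iigp1 was at -4.04 ± 0.54 and Usp18 at -4.57 ± 0.75, both interferon-induced genes. Hr was at -4.72 ± 0.19 and Hephl1 at -6.43 ± 0.66.

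For 8 genes in which 1 group held few or no counts, or all groups lay under 1 CPM, the fitted difference depends on the prior count and is no bound. It was 8.84 ± 2.21 for Myo18b, 6.30 ± 1.10 for Rflna, -4.12 ± 1.603 for Fmo2, -8.01 ± 1.17 for Mx1, -6.07 ± 0.78 for Gm8995, 6.45 ± 1.54 for Hecw1, 5.69 ± 1.40 for Unc45bos and -5.30 ± 1.13 for Cyth4. The call of Fmo2 was lost in limma voom at -1.76, without a filter and without any 1 of 5 libraries.

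Of 11 genes fixed by name, 10 differed, beside 41.2% of all genes tested. The response in CHIR was higher for Il6 (3.58 ± 0.34), Axin2 (1.83 ± 0.17), Id1 (0.86 ± 0.30), Pdgfra (0.66 ± 0.059), Cthrc1 (0.57 ± 0.16) and Col1a1 (0.13 ± 0.052). It was lower for Ly6c1 (-2.45 ± 0.22), Ly6a (-1.85 ± 0.12), Ccn2 (-1.48 ± 0.091) and Postn (-0.23 ± 0.049). The difference of Id1 was lost with only the 4 groups compared in the fit and without 7 of the 12 libraries, one at a time. Those of Col1a1 and Cthrc1 were lost under the alternatives given above. With the TGFb1 group labelled without solvent they were 0.0037 and 0.21. Id1 and Pdgfra fell in both responses, by less in CHIR, and Ly6a and Ly6c1 fell in both, by more in CHIR.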

How the results depend on the processing

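No paired analysis was possible because the labels do not say which libraries of different groups belong together. The library titles carry serial numbers with no stated meaning. In these numbers CHIR lies apart from DMSO, TGFb1 + DMSO and TGFb1 + CHIR, so their order cannot be told apart from treatment. Of the counts of all genes called under the alternatives, none moved by over 1.5 times. The genes changed by TGFb1 in CHIR ranged from 10100 (at least 1 CPM in 3 libraries) to 10688 (DESeq2) beside 10715, and from 10063 to 10374 with single replicates left out, and the differences between responses from 6148 to 6769 over all alternatives. Of 726 counts over lists 1 moved, the 2 secretory genes that fell without TGFb1 + CHIR replicate 3, where 4 fell with all libraries. The mitochondrial list gave no value with mitochondrial genes left out. Of 3563 checks of named genes in CHIR 28 lost the call and none reversed. Of 916 checks of differences 30 lost it and 2 reversed: that of Acta2 was -0.38 with the TGFb1 group labelled without solvent, and that of Lgr5 ran from -1.65 without DMSO replicate 2, where its DMSO counts lay, to 3.87 without CHIR replicate 3. In the solvent response Col15a1 reversed to 0.31 with the TGFb1 group labelled without solvent. The causes of the other changes were not tested. Depth limits genes under about 1 CPM, such as Tnmd, Hecw1, Cyth4 and Unc45bos, whose calls depended on single libraries.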

Other observations

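Transcription factors of the mesenchyme moved in both directions in the CHIR cells, with 10 up and 16 down of 27 tested (median -0.34). The 3 Runx genes, whose products drive skeletal and blood lineages, all rose: Runx1 by 2.91 ± 0.054, Runx2 by 1.37 ± 0.056 and Runx3 by 1.90 ± 0.093. Gli1, the target and effector of hedgehog signalling, rose by 3.97 ± 0.47 to 2.59 ± 0.231 CPM (mean ± SD, n = 3). Twist1, Snai1 and Zeb1, factors of mesenchymal transition, rose by 1.20 ± 0.068, 0.61 ± 0.07 and 0.52 ± 0.044, whereas their relatives Twist2, Snai2 and Zeb2 changed by -1.20 ± 0.086, -1.36 ± 0.06 and -0.15 ± 0.048. The related genes of each of these pairs thus went opposite ways. Prrx1, a fibroblast identity factor, changed by -0.51 ± 0.045, and Tbx5, a factor of lung mesenchyme, by -0.69 ± 0.10.

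Genes of bone, cartilage and tendon were also mixed, 5 up and 8 down of 15 tested (median -1.42, or -1.03 with Tnmd at its bound). The shares of all genes were 33.8% up and 32.3% down. Matn3, a cartilage matrilin, stood at 0.186, 0.19 and 0.0974 CPM in the CHIR libraries and 5.63, 6.08 and 6.92 CPM in the TGFb1 + CHIR libraries. It rose by 5.22 ± 0.46 with no overlap. Sp7, the osteoblast factor osterix, rose by 3.99 ± 0.55 at under 2 CPM. Alpl, alkaline phosphatase, stood at 24.9, 25.2 and 29.3 CPM in the CHIR libraries and 0.926, 1.09 and 0.967 CPM in the TGFb1 + CHIR libraries, a change of -4.74 ± 0.22. Sox9, the cartilage factor, stood at 84.2, 79.1 and 84.2 CPM in the CHIR libraries and 9.89, 9.38 and 12.7 CPM in the TGFb1 + CHIR libraries, a change of -2.96 ± 0.082 with no overlap. Tnmd, a tendon gene, had 7 counts in CHIR and none with TGFb1, at least 2.05-fold lower, a call that was lost in limma voom and without any 1 of the libraries other than CHIR replicate 3.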
